A study of Mus musculus with 77 samples.

Results

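The 10 genes described here encode proteins best known from neurons. Of these, 7 belong to the cytoskeleton or the growing axon (Tubb3, Stmn2, Map1b, Map2, Mapt, Dcx and Gap43) and 3 bind RNA (Elavl3, Elavl4 and Celf3). They were chosen by name from the 46078 genes of the count table, all 10 were present, and they were followed in pancreatic ductal organoid cells made to express the transcription factor Ngn3 (gene symbol Neurog3).

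Microtubules are polymers of alpha and beta tubulin, and a cell chooses among several genes for each. Tubb3 is the beta tubulin by which young neurons are usually recognised, Map2 and Mapt (tau) bind the microtubules of dendrites and axons, and Map1b and Dcx (doublecortin) are typical of growing and migrating young neurons. Stmn2 binds free tubulin in growing axons, and Gap43 is a membrane protein of the growth cone. Elavl3 and Elavl4 (HuC and HuD) bind AU-rich messenger RNA in neurons, whereas their relative Elavl1 (HuR) is found in nearly all cells, and Celf3 is an RNA-binding protein of the nervous system. Ngn3 is the basic helix-loop-helix factor that starts endocrine differentiation in the pancreas, and islet endocrine cells share many genes with neurons.

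Organoids from the pancreatic ducts of adult C57BL/6 mice were infected with lentiviruses of an inducible Tet-on system, one carrying the transactivator and the other GFP only, GFP with HA-tagged WT Ngn3, or GFP with HA-tagged 6S-A Ngn3, a phosphomutant whose serine-proline sites carry alanine. Pools of 50 cells were sorted and sequenced after 2 days of transgene induction (GFP only, WT Ngn3 and 6S-A Ngn3, 18 pools each) or after 8 days (WT Ngn3, 4 pools retained, 6S-A Ngn3, 6 pools, and the controls labelled for WT and for 6S-A, 6 pools each, named no-color here after the headers of their count columns). Each of the 7 groups held 3 replicates. Organoids were at passage 2, except replicate 3 of every 8-day group, at passage 5, so that passage and replicate cannot be told apart. No GFP-only sample of 8 days is labelled, so day and kind of control cannot be told apart either, and the labels do not say how the no-color cells were gated. The labels do not say that replicates came from separate mice, so p-values measure the spread between these samples, which may be technical in part.

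Pools of a replicate were summed, giving 17757303 to 26627347 reads on genes per replicate at 2 days and 2397470 to 17919627 at 8 days. Levels are given as CPM, the reads of a gene for every 1000000 reads on genes with library sizes scaled by TMM, and levels of different genes are compared only as CPM per kilobase of exons. The reads carry no molecular identifiers, so intervals and floors cover counting error only. Neurog3 had 4 reads in the GFP-only replicates together, against 133 ± 63.2 CPM in WT Ngn3 and 139 ± 52.3 CPM in 6S-A Ngn3 at 2 days and 22.4 ± 20.8 and 12.7 ± 2.75 CPM at 8 days (SD, n = 3 each). The no-color replicates had 0 to 0.989 CPM. Reads of the viral and the endogenous Neurog3 cannot be told apart. All 10 ductal markers of a list that includes Krt19 and Sox9 had reads in every group, with a summed level of 17051 to 18991 CPM in GFP only, 10607 to 11347 CPM in WT Ngn3 and 8844 to 9557 CPM in 6S-A Ngn3 at 2 days.

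Gene positions are those of the GENCODE annotation on GRCm38. Tubb3 (ENSMUSG00000062380) lies at chr8:123411424-123422015, Stmn2 (ENSMUSG00000027500) at chr3:8509360-8561606, Map1b (ENSMUSG00000052727) at chr13:99421446-99516540 and Map2 (ENSMUSG00000015222) at chr1:66175273-66442583. Mapt (ENSMUSG00000018411) lies at chr11:104231390-104332090, Dcx (ENSMUSG00000031285) at chrX:143855842-143933311 and Gap43 (ENSMUSG00000047261) at chr16:42248442-42340651. Elavl3 (ENSMUSG00000003410) lies at chr9:22015005-22052023, Elavl4 (ENSMUSG00000028546) at chr4:110203722-110351909 and Celf3 (ENSMUSG00000028137) at chr3:94478295-94492198. Their exons add up to between 1523 bases (Gap43) and 16449 bases (Map2). Of the 50-base stretches of their transcripts, 3.11% for Elavl3, 0.875% for Stmn2 and 0.181% for Dcx also occurred in other genes, and none did for the other 7 genes. Exons of Map2 share 124 bases with the antisense gene Gm10558, and those of Celf3 share 74 bases with Riiad1 on the opposite strand. Whether counting used strand is not stated, so reads from these stretches cannot be assigned to one gene with certainty. Elavl3 shares 256 exon bases with Gm49318 on its own strand.

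Basic helix-loop-helix factors bind E-boxes, CANNTG. The 250 bases before a RefSeq start (GRCm38.p6) were searched on both strands for the 7 genes matched by symbol in the promoter table, Stmn2, Mapt and Gap43 being without a match. Of several starts (7 for Celf3, 4 for Elavl4 and 2 for Dcx), the one nearest the GENCODE gene start was used. The windows of Tubb3, Dcx and Map2 have 129, 92 and 56 bases inside the GENCODE gene. The start used for Map1b lies 62 bases from its GENCODE start. A CANNTG was found in 3 of the 7 windows, those of Map1b, Elavl3 and Celf3, against 66.2% of 32817 promoter windows. Of its forms, CAGATG occurred in 1 of 7 (14.5% of all windows), CAGCTG in 2 of 7 (13%) and CATATG in 0 of 7 (3.47%). The windows of Tubb3, Map2, Dcx and Elavl4 held none, which says only that these letters are not in them. The 3 windows with a match are shown with that of Elavl4, to set the Elavl genes side by side, 5′ to 3′ on the strand of the gene and with the E-boxes in capitals.
Elavl3 (chr9:22052024-22052273, minus strand): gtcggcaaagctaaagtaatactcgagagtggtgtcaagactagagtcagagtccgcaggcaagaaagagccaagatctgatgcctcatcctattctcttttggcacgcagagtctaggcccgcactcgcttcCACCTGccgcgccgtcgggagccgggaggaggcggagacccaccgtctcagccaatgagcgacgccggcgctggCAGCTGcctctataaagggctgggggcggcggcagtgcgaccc
Celf3 (chr3:94478045-94478294, plus strand): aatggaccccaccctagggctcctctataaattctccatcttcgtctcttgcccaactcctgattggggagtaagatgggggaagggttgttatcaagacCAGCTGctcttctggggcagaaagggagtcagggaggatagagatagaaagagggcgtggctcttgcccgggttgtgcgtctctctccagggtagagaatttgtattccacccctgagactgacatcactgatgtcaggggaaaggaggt
Map1b (chr13:99516603-99516852, minus strand): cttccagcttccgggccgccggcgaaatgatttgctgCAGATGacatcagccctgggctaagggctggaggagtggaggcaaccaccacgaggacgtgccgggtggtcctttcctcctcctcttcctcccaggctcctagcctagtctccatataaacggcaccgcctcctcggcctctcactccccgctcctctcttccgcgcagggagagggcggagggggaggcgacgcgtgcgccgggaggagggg
Elavl4 (chr4:110351912-110352161, minus strand): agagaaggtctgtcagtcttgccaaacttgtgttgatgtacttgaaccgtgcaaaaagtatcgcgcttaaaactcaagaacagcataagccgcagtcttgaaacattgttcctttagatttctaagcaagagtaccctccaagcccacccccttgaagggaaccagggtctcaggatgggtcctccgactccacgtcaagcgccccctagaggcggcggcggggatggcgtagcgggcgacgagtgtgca
The E-boxes begin 117 and 43 bases before the start of Elavl3, 150 bases before that of Celf3 and 213 bases before that of Map1b.

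At 2 days, Tubb3, Map2, Dcx, Elavl3 and Celf3 rose with WT Ngn3, and these and Map1b and Elavl4 rose with 6S-A Ngn3. Stmn2 and Mapt did not pass the test with either protein, and Gap43 had too few reads to be tested. Of the 9 genes tested, 5 were higher with WT and 7 with 6S-A Ngn3 at an adjusted p under 0.05 (quasi-likelihood test of edgeR, Benjamini-Hochberg adjusted over 23844 genes), and all 9 estimates were above 0 with both. Over all genes tested, 6.56% were higher with WT and 9.43% with 6S-A Ngn3. Under the replicate block, in which replicates of 1 number are compared with each other, 7 passed with WT Ngn3, Map1b and Elavl4 being added, and 7 with 6S-A Ngn3, against 9.47% and 12.7% of all genes. The median log2 fold change of the 9 genes was 3.69 with WT and 4.26 with 6S-A Ngn3, against 0.01 and 0.02 over all genes. Every replicate lay above every GFP-only replicate for 6 genes with WT and 7 with 6S-A Ngn3, against 13% and 16.7% of all genes. Both comparisons share the GFP-only samples. In such pools, more cells expressing a gene and more RNA per cell cannot be told apart.

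**Figure D1:**
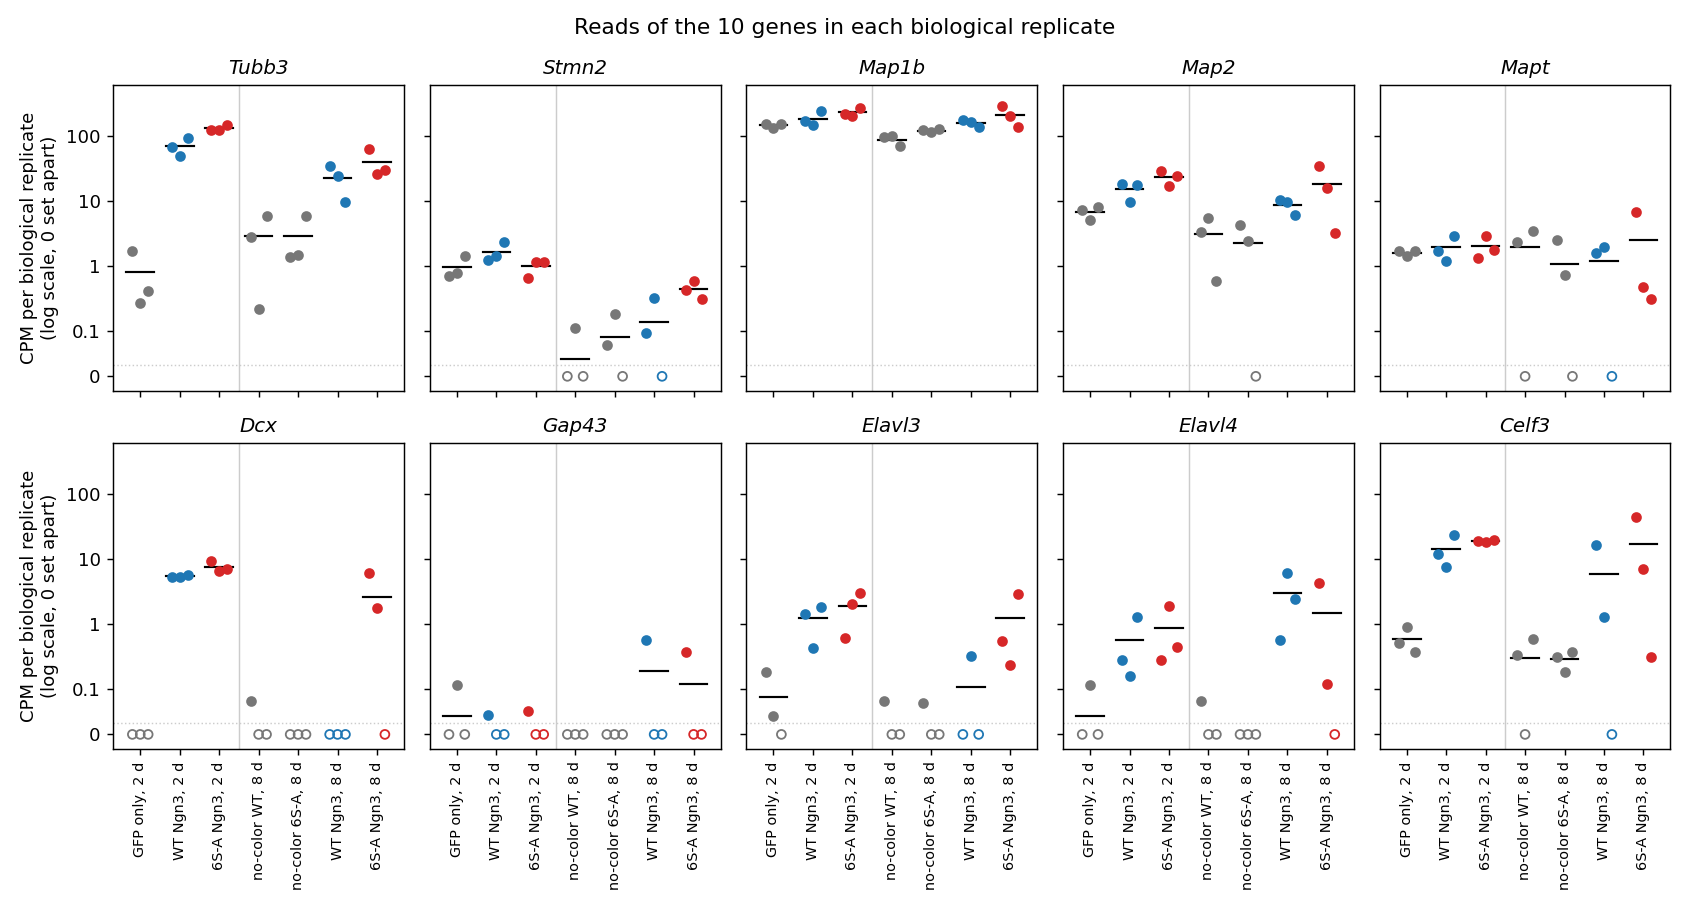
Level of each of the 10 genes in CPM (log scale, with values of 0 as open circles set apart) in the 3 replicates of the 7 groups; horizontal lines are group means, not drawn where they fall below the axis. All WT and 6S-A Ngn3 replicates of 2 days lie above GFP only for Tubb3, Map2, Dcx, Elavl3, Elavl4 and Celf3, and Map1b is high in every group.

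Tubb3 was low in GFP only at 2 days, at 0.423 ± 0.416 CPM per kilobase of exons (SD, n = 3). The GFP-only replicates had 1.68, 0.27 and 0.416 CPM, those of WT Ngn3 66.4, 48.2 and 90.9 CPM and those of 6S-A Ngn3 123, 123 and 146 CPM. Every Ngn3 replicate lay far above every GFP-only replicate. The log2 fold change in edgeR was 6.39 for WT Ngn3 (SE 0.49, 84.2-fold, adjusted p = 2.65e-05) and 7.31 for 6S-A Ngn3 (SE 0.50, 159-fold, adjusted p = 7.01e-06). Both calls held in all 17 alternative analyses, but the size rests on few control reads. Of 62 GFP-only reads, 32 came from 1 pool of replicate 1, and without that replicate the log2 fold changes were 7.65 and 8.57.

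Several other beta tubulins were lower, and a pair of them were higher with 6S-A Ngn3. Per kilobase of exons, Tubb3 made up 0.0673% ± 0.062 of the summed level of 8 beta tubulin genes in GFP only, 8.34% ± 2.88 in WT Ngn3 and 15% ± 1.98 in 6S-A Ngn3 (SD, n = 3 each). Tubb5, the beta tubulin with the highest level per kilobase, fell by 0.81 with WT and by 0.91 with 6S-A Ngn3 on the log2 scale (SE 0.15 each, edgeR, adjusted p = 0.0024 and 0.000632), from 999 ± 131 CPM in GFP only to 564 ± 83.7 and 529.9 ± 94.6 CPM. Of 11 alpha and beta tubulin genes tested besides Tubb3, 6 were lower with WT and 6 with 6S-A Ngn3, against 5.22% and 8.63% of all genes, with a median log2 fold change of -0.68 and -0.76. Among them were Tuba1b (-1.34 and -1.45), Tubb2b (-0.98 and -1.55), Tubb4b (-0.81 and -0.97) and Tubb2a (-0.78 and -0.97). None was higher with WT Ngn3 and 2 were with 6S-A Ngn3, Tubb4a (1.35) and Tubb6 (0.41), named here after their values were seen, against 6.56% and 9.43% of all genes. Under the replicate block Tubb6 was higher with WT Ngn3 also (0.26 in the fit without block, adjusted p = 0.212, or 0.0438 under the block, edgeR). Leaving out 1 replicate ended the call of Tubb6 with 6S-A Ngn3 in 5 of 9 (6S-A replicate 3, 0.113) and that of Tubb2b with WT Ngn3 in 4 of 9 (GFP-only replicate 2, 0.116), the replicate and adjusted p (edgeR) in parentheses being those of the highest p.

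**Figure D2:**
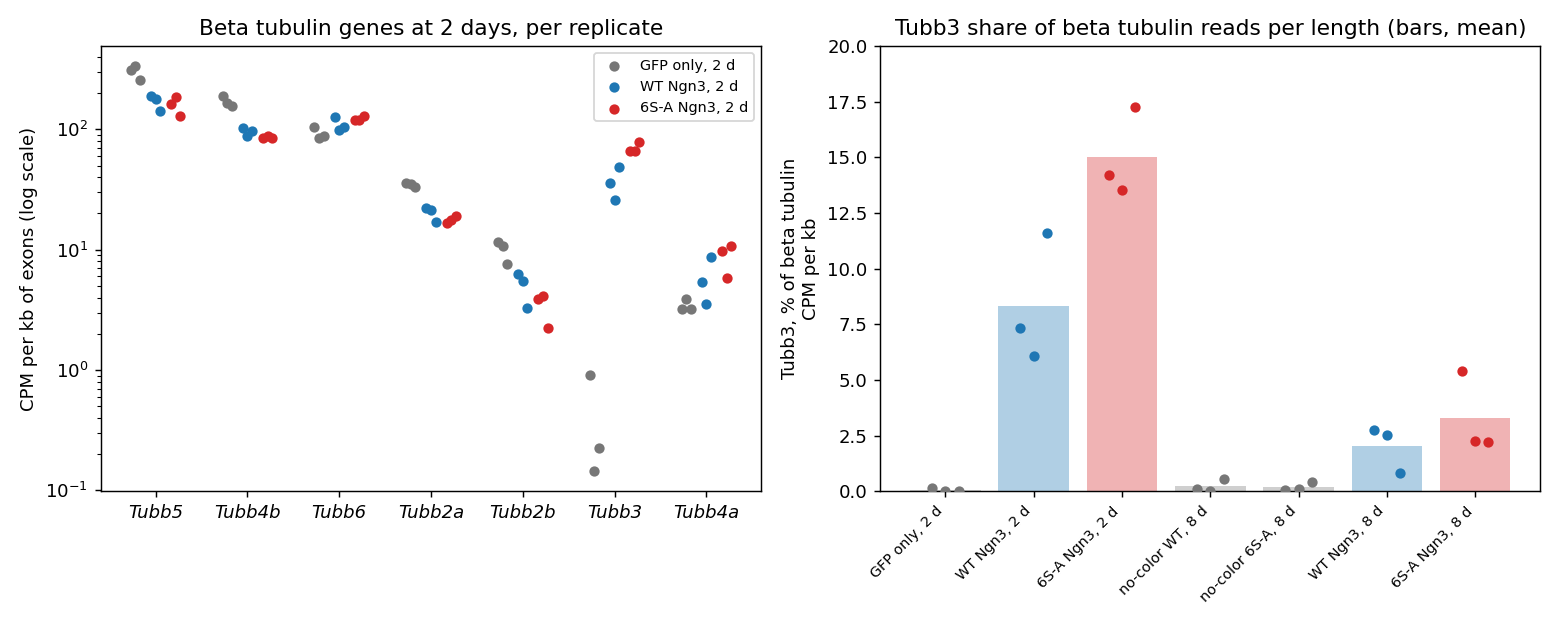
Left, levels of 7 beta tubulin genes at 2 days in CPM per kilobase of exons (log scale), 1 point per replicate. Right, Tubb3 as a percentage of the summed CPM per kilobase of 8 beta tubulin genes in each replicate of the 7 groups, bars being group means. Tubb3 is the lowest of the 7 genes in GFP only, and its mean share is 0.0673% there, 8.34% with WT and 15% with 6S-A Ngn3 at 2 days.

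Dcx had no read in any of the 18 GFP-only pools, which allows up to 0.0401 CPM (3 reads over the group). The replicates of WT Ngn3 had 5.16, 5.23 and 5.67 CPM and those of 6S-A Ngn3 9.16, 6.4 and 7.01 CPM. The level was at least 133-fold higher with WT Ngn3 and at least 189-fold higher with 6S-A Ngn3 (edgeR, adjusted p = 1.33e-06 and 4.37e-07).

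The fold changes of Map2 and Map1b were smaller than those of Tubb3 and Dcx. In GFP only, Map2 stood at 0.407 ± 0.0908 CPM per kilobase of exons (SD, n = 3), near the 0.423 of Tubb3. Map2 had 7.1, 5.05 and 7.96 CPM in GFP only, 18.1, 9.58 and 17.2 CPM in WT Ngn3 and 28.8, 16.7 and 23.6 CPM in 6S-A Ngn3. GFP only overlapped with neither protein. The log2 fold change was 1.17 for WT Ngn3 (SE 0.28, edgeR, adjusted p = 0.0138) and 1.78 for 6S-A Ngn3 (SE 0.28, adjusted p = 0.000503). The call for WT Ngn3 was lost without GFP-only replicate 2 (adjusted p = 0.0731, edgeR) or WT replicate 1 (adjusted p = 0.0512).

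Map1b was the most abundant of the 10 genes in GFP only, at 9.05 ± 0.752 CPM per kilobase of exons (SD, n = 3). It had 149.8, 129.6 and 151 CPM in GFP only, 165, 145 and 235 CPM in WT Ngn3 and 214, 199.9 and 266 CPM in 6S-A Ngn3. The WT replicates overlapped with GFP only and the 6S-A replicates did not. For 6S-A Ngn3 the log2 fold change was 0.66 (SE 0.17, edgeR, adjusted p = 0.0145), a call lost without GFP-only replicate 2 (adjusted p = 0.0714) or 6S-A replicate 3 (adjusted p = 0.0708). For WT Ngn3 it was 0.35 (SE 0.17, edgeR, adjusted p = 0.239, or 0.024 under the replicate block).

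The remaining cytoskeletal genes were low. Mapt lay at 1.2 to 2.91 CPM in the 9 replicates of 2 days, with log2 fold changes of 0.28 (SE 0.44) for WT and 0.32 (SE 0.44) for 6S-A Ngn3. Stmn2 had 0.695 to 1.43 CPM in GFP only, 1.23 to 2.32 CPM in WT Ngn3 and 0.642 to 1.16 CPM in 6S-A Ngn3, with log2 fold changes of 0.78 (SE 0.49) and 0.02 (SE 0.49). Gap43 had 3 reads in GFP only and 1 read each in WT and 6S-A Ngn3.

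Celf3 was the most abundant of the RNA-binding genes per kilobase of exons. Its replicates had 0.512, 0.887 and 0.37 CPM in GFP only, 11.9, 7.43 and 23.2 CPM in WT Ngn3 and 19.1, 18.3 and 19.6 CPM in 6S-A Ngn3. The range of the WT replicates encloses that of the 6S-A replicates, and both lay above GFP only. The log2 fold change was 4.58 for WT (SE 0.43, edgeR, adjusted p = 1.49e-05) and 4.98 for 6S-A Ngn3 (SE 0.44, adjusted p = 4.13e-06). Among the 6 Celf genes, Celf3 went from 0.357% ± 0.179 of the summed CPM per kilobase in GFP only to 8.06% ± 4 in WT and 11% ± 0.719 in 6S-A Ngn3 (SD, n = 3).

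Elavl3 and Elavl4 appeared at low levels. Elavl3 had 0.183, 0.0385 and 0 CPM in GFP only, 1.43, 0.419 and 1.82 CPM in WT Ngn3 and 0.596, 2.03 and 2.99 CPM in 6S-A Ngn3, with no overlap between GFP only and either protein. Its log2 fold change was 3.90 for WT (SE 0.92, edgeR, adjusted p = 0.0123) and 4.49 for 6S-A Ngn3 (SE 0.92, adjusted p = 0.00324). Without GFP-only replicate 2 the call for WT Ngn3 was lost (adjusted p = 0.0662, edgeR). GFP-only replicate 1 held 5 of the 6 GFP-only reads, and without it the log2 fold changes were 5.55 and 6.14.

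Elavl4 rested on few reads, 3 in GFP only, 36 in WT and 52 in 6S-A Ngn3, which are ratios of 13.9 (95% counting interval 4.39 to 70.6) and 20.5 (6.62 to 102). The replicates had 0, 0.116 and 0 CPM, 0.278, 0.157 and 1.28 CPM and 0.275, 1.87 and 0.446 CPM in the same order, without overlap with GFP only. In edgeR the adjusted p was 0.0802 for WT Ngn3, 0.0405 under the replicate block, and 0.0298 for 6S-A Ngn3. With WT Ngn3 it also passed in DESeq2 (adjusted p = 0.033) and in edgeR without the filter on low counts (0.0124), fits in which 8.26% and 5.64% of all genes were higher. The call for 6S-A Ngn3 was lost without GFP-only replicate 1 or 3 or 6S-A replicate 2 (adjusted p = 0.0973, 0.0927 and 0.165, edgeR). All GFP-only reads lay in replicate 2, and without 6S-A replicate 2 the ratio was 9.03 (2.59 to 48.4, 16 reads). The ubiquitous Elavl1, named for comparison, stood at 179 ± 14.4 CPM in GFP only, 172 ± 5.74 CPM in WT and 181 ± 4.13 CPM in 6S-A Ngn3, with log2 fold changes of -0.05 (SE 0.10) and 0.01 (SE 0.10).

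**Figure D3:**
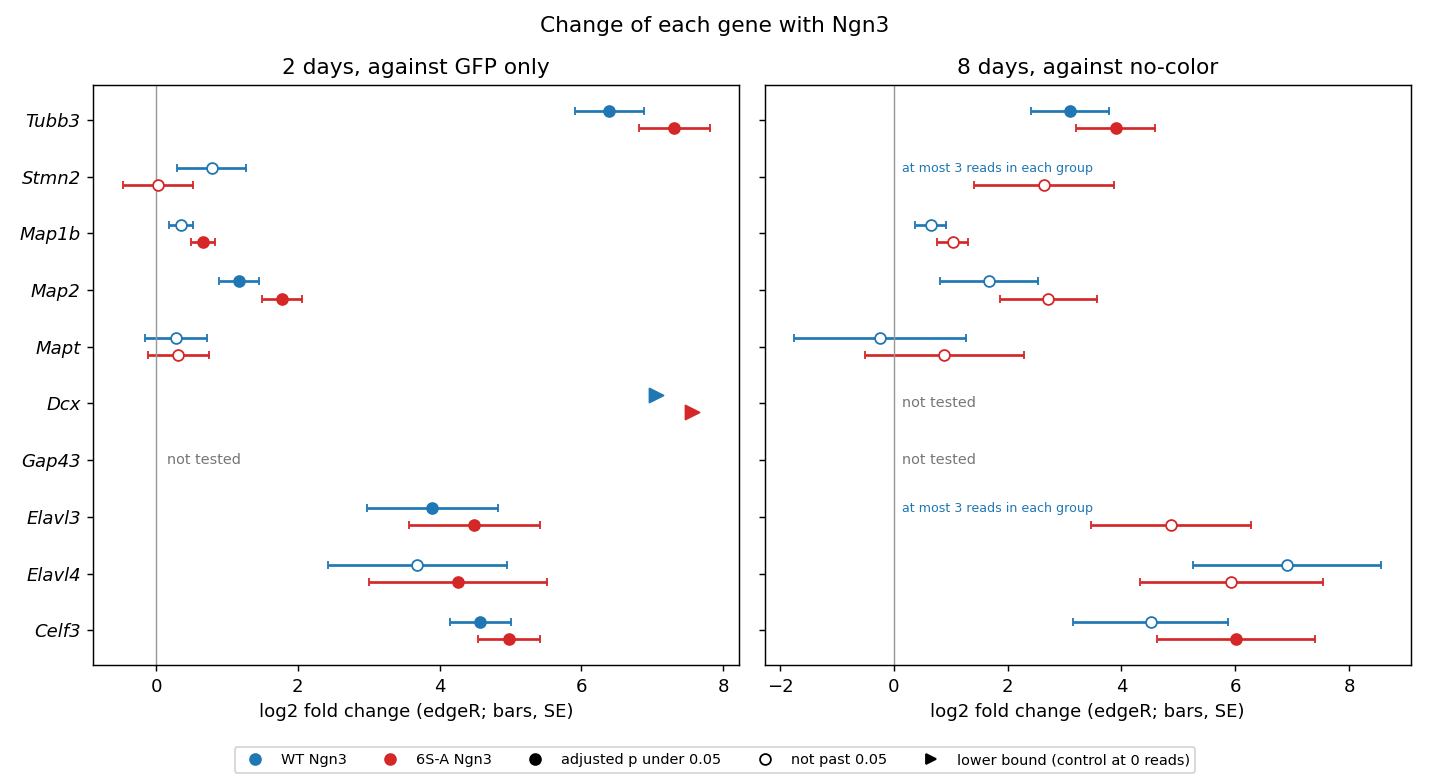
Log2 fold change of each gene from edgeR with WT Ngn3 (blue) and 6S-A Ngn3 (red), bars being the SE, at 2 days against GFP only (left) and at 8 days against no-color (right). Filled points passed an adjusted p of 0.05, and triangles are lower bounds for Dcx, which had no read in GFP only. At 2 days 5 and 7 genes passed, at 8 days 1 and 2.

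Between the proteins, 0 of 9 genes passed at 2 days in edgeR and 0 in DESeq2. Over all 23844 genes, edgeR called 3 (0.0126%) and DESeq2 97. An unadjusted p under 0.05 in edgeR was reached by 2 of the 9, Tubb3 and Map2, and by 5.79% of all genes. Tubb3 was 0.92 higher with 6S-A than with WT Ngn3 on the log2 scale (95% interval 0.14 to 1.7, edgeR, adjusted p = 0.809) and Map2 0.61 (0.02 to 1.2, adjusted p = 0.847). The estimates were above 0 for 8 of the 9 genes, with a median of 0.48 against -0.0014 over all genes, and this count was not tested. Every 6S-A replicate lay above every WT replicate for Tubb3 and Dcx and below for Stmn2, against 5.4% of all genes above and 5.19% below. Within pairs of 1 replicate number, 6S-A lay above WT Ngn3 in all 3 for Tubb3, Map1b, Map2 and Dcx and below for Stmn2, against 15.4% and 14.9% of all genes. Under the replicate block the adjusted p was 0.11 for Map2, 0.176 for Map1b and 0.367 for Tubb3 (edgeR). In that fit 0 of 9 passed, against 149 of all 23844 genes.

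At 8 days, Tubb3 was higher than in the no-color controls with both proteins and Celf3 with 6S-A Ngn3. Of the 8 genes tested, 1 was higher with WT and 2 with 6S-A Ngn3 (edgeR, 19696 genes), against 0.741% and 1.37% of all genes. Dcx and Gap43 had too few libraries with reads to be tested. Under the replicate block, 2 genes passed with WT Ngn3, Elavl4 being added (adjusted p = 0.0196, edgeR), and 4 with 6S-A Ngn3, Map1b (adjusted p = 0.0219) and Map2 (adjusted p = 0.0215) being added, against 1.78% and 2.4% of all genes higher in that fit. DESeq2 called 3 genes with WT and 5 with 6S-A Ngn3, and so did edgeR without the filter on low counts, against 1.75% and 2.38% of all genes higher in DESeq2 and 1.76% and 2.45% without the filter. Against each protein's own no-color group these calls were lost, at an adjusted p of 0.211 for Tubb3 with WT Ngn3 and of 0.0658 for Tubb3 and 0.239 for Celf3 with 6S-A Ngn3 (edgeR). Over all 19696 genes, 37 and 82 were higher than in these own controls. Every replicate lay above all no-color replicates for 4 genes with WT Ngn3 (Tubb3, Map1b, Map2 and Elavl4) and for 4 with 6S-A Ngn3 (Tubb3, Stmn2, Map1b and Elavl3), against 2.95% and 3.59% of all genes. With 6S-A Ngn3, Stmn2 rested on 14 reads against 4 in the no-color groups (edgeR, adjusted p = 0.406). Elavl3 rested on 30 reads against 2 (edgeR, adjusted p = 0.103). The lowest 6S-A replicate of each held 2 reads.

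Tubb3 had 34.4, 23.7 and 9.48 CPM in WT Ngn3 and 63.2, 25.5 and 29.9 CPM in 6S-A Ngn3 at 8 days, and the 6 no-color replicates had 0.218 to 5.77 CPM. The log2 fold change was 3.10 for WT Ngn3 (SE 0.68, edgeR, adjusted p = 0.0423) and 3.90 for 6S-A Ngn3 (SE 0.69, adjusted p = 0.00631). The call for WT Ngn3 was lost in 10 of 21 alternatives, with an adjusted p of 0.263 without WT replicate 1 and of 0.137 without WT replicate 2. It was also lost without replicate 2 or 3 of 6S-A Ngn3, replicate 1 or 2 of the 6S-A control or replicate 1 or 3 of the WT control (adjusted p = 0.0524 to 0.132, edgeR). For 6S-A Ngn3 it held in 20 of 21. Without replicate 3 of every group, the one at passage 5, the log2 fold changes were 4.28 and 4.90.

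Celf3 differed between replicates at 8 days. It had 16.1, 1.28 and 0 CPM in WT Ngn3 and 43.9, 6.9 and 0.307 CPM in 6S-A Ngn3, while the no-color replicates had 0 to 0.576 CPM. Replicate 1 was the highest of both groups, and replicate 3 lay within the controls in both. The log2 fold change was 4.51 for WT (SE 1.36, edgeR, adjusted p = 0.181) and 6.02 for 6S-A Ngn3 (SE 1.39, adjusted p = 0.041). With WT Ngn3 it passed in DESeq2 (adjusted p = 0.033) and in edgeR without the filter on low counts (adjusted p = 9.26e-06). The call for 6S-A Ngn3 was lost in 10 of 21 alternatives, among them without 6S-A replicate 1 (adjusted p = 0.313, edgeR) or 2 (0.0581) and without any single no-color replicate (0.0776 to 0.135). The value rested on 6S-A replicate 1, without which the log2 fold change was 3.74, against 6.39 without replicate 2, 6.80 without replicate 3 of every group and 5.34 under the replicate block. The summed level of 10 endocrine markers also spread widely in these groups, over 22.1 to 1891 CPM in WT and 162 to 2332 CPM in 6S-A Ngn3.

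Dcx had no read in WT Ngn3 at 8 days, which allows up to 0.158 CPM, at least 33.8-fold below the level of 2 days. In the fit of both days this difference had an adjusted p of 0.0789 (edgeR), of 0.00255 under the replicate block, of 0.0406 without 6S-A replicate 1 of 8 days and of 0.0115 without its replicate 3. With 6S-A Ngn3, Dcx had 6.05, 1.75 and 0 CPM, and of its 115 reads 95 came from 1 pool.

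The other genes did not pass at 8 days in edgeR with the filter on low counts and without the block. Map1b had 136 to 172 CPM in WT Ngn3, 137 to 289 CPM in 6S-A Ngn3 and 68 to 125 CPM in the no-color groups, with log2 fold changes of 0.64 (SE 0.27, edgeR, adjusted p = 0.402) and 1.03 (SE 0.27, adjusted p = 0.0676). With 6S-A Ngn3, Map1b passed in DESeq2 (adjusted p = 0.00596) and in edgeR without 6S-A replicate 3 (adjusted p = 0.0345). Map2 had 6.13 to 10.3 CPM, 3.22 to 34.3 CPM and 0 to 5.44 CPM in the same order, and with 6S-A Ngn3 it passed in DESeq2 (adjusted p = 0.0456) and in edgeR without the filter (adjusted p = 0.00196) or without passage 5 (adjusted p = 0.0382). Elavl4 had 0.556, 6.08 and 2.37 CPM in WT Ngn3 and 4.23, 0.117 and 0 CPM in 6S-A Ngn3, against 1 read in all no-color replicates. All WT replicates of Elavl4 lay above the controls (edgeR, adjusted p = 0.0713) and 1 of the 6S-A replicates had no read (adjusted p = 0.0871). It passed with WT and with 6S-A Ngn3 in DESeq2 (adjusted p = 0.0132 and 0.0464) and in edgeR without the filter (adjusted p = 0.00114 and 0.00506). Without 6S-A replicate 3 it passed with both in edgeR (adjusted p = 0.0391 and 0.0491), and without 6S-A replicate 1 with WT Ngn3 (0.034). Elavl3 had 1 read in WT and 30 reads in 6S-A Ngn3. Stmn2, Mapt and Gap43 stayed at or below 6.77 CPM in every replicate of 8 days.

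Between the proteins at 8 days, 0 of 8 genes passed in edgeR or DESeq2, each of which called 0 of all 19696 genes. An unadjusted p under 0.05 in edgeR was reached by 0 of the 8 and by 2.11% of all genes. The 95% interval of the difference between 6S-A and WT Ngn3 was -0.87 to 2.45 for Tubb3 and -0.29 to 1.06 for Map1b on the log2 scale, so differences of the size seen at 2 days lie within it. Within pairs of 1 number, 6S-A lay above WT Ngn3 in all 3 for Tubb3, Stmn2, Map1b and Celf3 and below for none, against 11.7% and 9.6% of all genes. Under the replicate block 0 of 8 passed, as did 0 of all 19696 genes (edgeR).

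From 2 to 8 days, 0 of 10 genes passed in edgeR with either protein (0.116% of 24945 genes did with WT and 0.433% with 6S-A Ngn3). Unadjusted p-values were under 0.05 for 4 genes with WT Ngn3 (Tubb3, Stmn2, Dcx and Elavl3) and for 1 with 6S-A Ngn3 (Tubb3), against 8.21% and 11.9% of all genes, and DESeq2 called 1 (Dcx) and 0, against 1.02% and 2.79% of all genes. Over all genes the median log2 fold change was -0.14 and -0.12. The estimate for Tubb3 was -1.60 (SE 0.70, edgeR, adjusted p = 0.569) with WT and -1.72 (SE 0.69, adjusted p = 0.334) with 6S-A Ngn3, every 8-day replicate lying below those of 2 days. Without the filter on low counts both passed in edgeR (adjusted p = 0.0047 and 0.000805), as did Dcx with WT Ngn3 (adjusted p = 5.94e-05), against 1.13% and 1.93% of all genes. The change of the effect over control, from 2 to 8 days, was -3.23 (SE 1.00, adjusted p = 0.722) and -3.35 (SE 1.00, adjusted p = 0.634) for Tubb3. By this test too 0 of 10 genes passed with either protein in edgeR (0% and 0.012% of all genes did), with 2 genes (Tubb3 and Gap43) and 3 genes (these and Stmn2) at an unadjusted p under 0.05, against 5.29% and 5.7% of all genes, and 1 (Dcx) and 0 called by DESeq2, against 0.257% and 0.245%. Dcx is counted among the 10, but edgeR gave no usable estimate of its change of effect with either protein. It had no read in GFP only, nor in WT Ngn3 at 8 days, so for Dcx the edgeR test could not decide. Without the filter Tubb3 passed with both proteins by this test too (adjusted p = 9.03e-06 and 1.69e-06, edgeR), against 0.267% and 0.408% of all genes.

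Ordered by mean level, Tubb3 ran from 6S-A Ngn3 at 2 days (131 ± 12.9 CPM) over WT Ngn3 at 2 days (68.5 ± 21.4), 6S-A (39.5 ± 20.6) and WT Ngn3 at 8 days (22.5 ± 12.5) to the no-color groups and GFP only (0.79 ± 0.777; SD, n = 3 each). The replicates were apart between the first and second of these groups and between WT Ngn3 at 8 days and the controls, and overlapped between the other neighbours. Elavl4 had another order, with WT Ngn3 at 8 days highest (3 ± 2.81 CPM) but overlapping with the next group, 6S-A Ngn3 at 8 days (1.45 ± 2.41 CPM).

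In single pools, Tubb3 had reads in all 18 pools of each Ngn3 group at 2 days, at 17.8 to 160.1 CPM with WT and 62.8 to 254 CPM with 6S-A Ngn3, against 9 of 18 GFP-only pools. Celf3 had reads in all Ngn3 pools too and in 13 GFP-only pools. Dcx was found in 15 WT and 16 6S-A pools, with up to 15.9 and 19.4 CPM. Elavl3 was found in 3 GFP-only, 7 WT and 15 6S-A pools, and Elavl4 in 1, 9 and 12. Pools of a replicate share their source and were not tested. Of 148 pairs of pools of 1 replicate, 6, all at 2 days, were much closer in their counts (chi-square per gene 1.61 to 2.44) than the others (5.41 to 60.8). Each of the close pairs was technical repeats 2 and 3 of replicate 2 or 3, in all 3 groups, and the labels do not say whether they are 1 pool run again. With each such pair counted as 1 pool, 16 remained in a group, of which Tubb3 had reads in 9 of GFP only and in all of both proteins, Celf3 in 12 of GFP only, Dcx in 13 of WT and 14 of 6S-A Ngn3, Elavl3 in 3, 7 and 13 and Elavl4 in 1, 8 and 10.

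**Figure D4:**
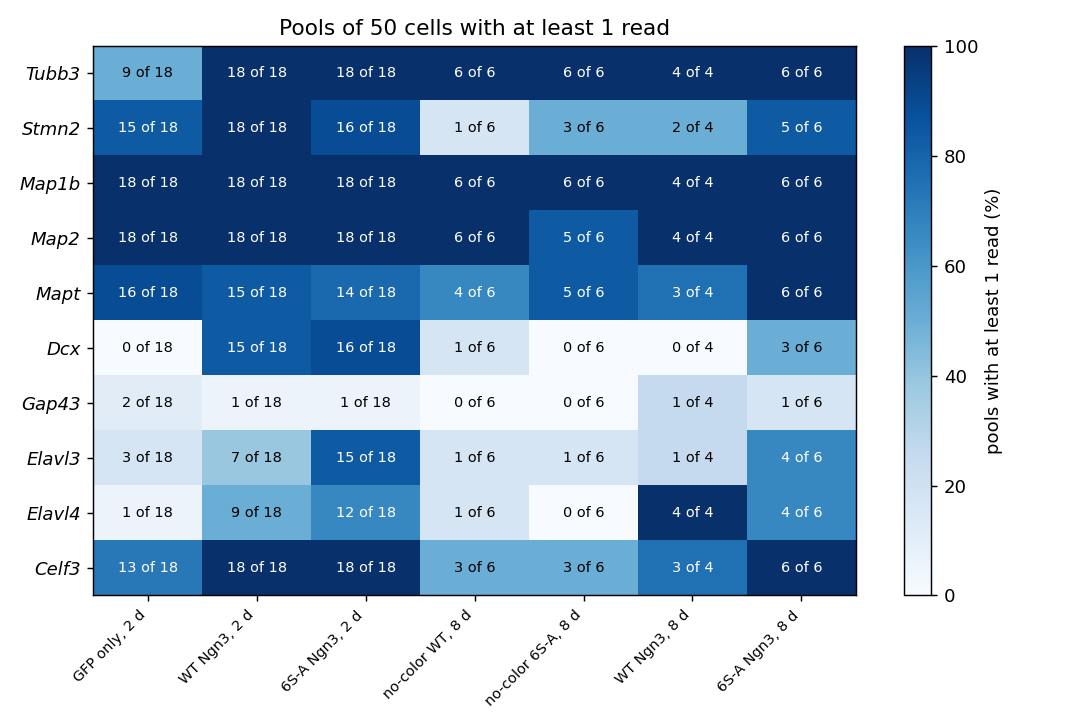
Number of retained pools of 50 cells with at least 1 read of each gene (rows) in each group (columns), the shade giving the percentage of pools. Map1b and Map2 have reads in every pool of 2 days, Dcx in 0 of 18 GFP-only pools and in 15 and 16 of 18 WT and 6S-A Ngn3 pools, and Gap43 in at most 2 pools of any group.

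Further genes of these kinds were read from lists without the 10 genes, in the same edgeR fit and with adjustment over all genes. Over all genes at 2 days, 6.56% were higher and 5.22% lower with WT Ngn3, and 9.43% and 8.63% with 6S-A Ngn3. With the block these shares were 9.47% and 8.53% with WT, and 12.7% and 12.1% with 6S-A Ngn3. Of 20 further microtubule-associated genes, 1 was higher and 1 lower with WT Ngn3, near the shares over all genes, and 5 and 3 with 6S-A Ngn3, or 3 and 2 and 7 and 3 under the block (median log2 fold change 0.11 and 0.22). Stmn3, a neuronal relative of Stmn2, had 1 read in GFP only, 43 in WT and 45 in 6S-A Ngn3 and passed with both. Stmn1, the stathmin of dividing cells, fell by 1.12 (SE 0.24) and by 0.94 (SE 0.24) on the log2 scale. Map4, with the highest CPM of the list, had log2 fold changes of -0.28 and -0.24 and did not pass, though it was lower with WT Ngn3 under the block (adjusted p = 0.0327, edgeR). Named after their values were seen, Dclk2 (2.17), Tppp3 (1.16), Ttll7 (0.73) and Mapre3 (0.61) were also higher and Dclk1 (-0.79), a close relative of Dcx, and Map7 (-0.43) lower with 6S-A Ngn3. With 6S-A Ngn3, leaving out 1 replicate ended the call of Map7 in 5 of 9 (6S-A replicate 2, 0.14), of Ttll7 in 4 of 9 (6S-A replicate 3, 0.152), of Dclk1 in 2 of 9 (GFP-only replicate 2, 0.131) and of Stmn1 in 2 of 9 (GFP-only replicate 2, 0.0653).

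Of 12 genes of motors and intermediate filaments, 3 were higher with WT and 5 with 6S-A Ngn3, and 0 and 1 lower (median 0.16 and 0.36), against 6.56% and 9.43% of all genes higher and 5.22% and 8.63% lower. Nefm, a neurofilament chain, rose from 0.212 ± 0.19 CPM to 21.7 ± 18 and 44.1 ± 14.7 CPM (log2 fold change 6.58, SE 0.99, and 7.59, SE 1.00), the kinesin Kif5c by 2.54 and 2.99, and Vim (vimentin), with the highest CPM of the list, by 2.77 and 2.67. The log2 fold change of Nefm was 5.73 (without WT replicate 3) and 8.18 (without GFP-only replicate 1) at its farthest when 1 replicate was left out. Named after their values were seen, Nefl (4.29) and Kif21b (0.79) were also higher with 6S-A Ngn3, and Prph (peripherin) was lower, with 16 reads in GFP only, 1 in WT and 0 in 6S-A Ngn3 (edgeR, adjusted p = 0.0492, or 0.0792 under the replicate block). Leaving out 1 replicate ended the call of Prph in 7 of 8 (6S-A replicate 3, 0.11), of Nefl in 3 of 9 (GFP-only replicate 2, 0.0759) and of Kif21b in 2 of 9 (6S-A replicate 2, 0.0605), and the log2 fold change of Nefl was at its farthest 5.86 (without GFP-only replicate 1). Of 15 axon growth genes, 8 and 10 were higher and 0 and 1 lower (median 0.90 and 1.40), against 6.56% and 9.43% of all genes higher, and under the replicate block 9 and 10 were higher and 1 and 1 lower. These included Dpysl5 (3.42 and 4.67), Dpysl4 (2.66 and 3.69) and Crmp1 (2.56 and 4.45), of the collapsin response mediator family, and Marcks (0.79 and 0.83), with the highest CPM. The values moved most to 4.95 and 6.84 without GFP-only replicate 1 for Crmp1 and to 4.17 and 5.42 without GFP-only replicate 1 for Dpysl5, and the call of Crmp1 with WT Ngn3 was lost without 1 replicate in 6 of 9 (GFP-only replicate 2, 0.153). The Cdk5 activator Cdk5r2 had 2 reads in GFP only, 45 in WT and 38 in 6S-A Ngn3 and passed with both. The gene lower with 6S-A Ngn3 was Basp1 (-0.96), named after its value was seen.

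Of 15 further neuronal RNA-binding genes, 6 were higher with WT and 8 with 6S-A Ngn3 at 2 days and 0 lower (median 1.46 and 2.03), against 6.56% and 9.43% of all genes higher, and under the replicate block 8 and 9 were higher. They included Celf6 (1 read in GFP only, 47 in WT and 60 in 6S-A Ngn3) and, by log2 fold change, Rbfox3, the neuronal marker NeuN (3.81 and 4.56), Srrm3, a regulator of neuronal microexons (3.55 and 3.93), Khdrbs3 (2.46 and 2.65) and Rbfox2, with the highest CPM (0.92 and 1.22). The values moved most to 5.50 and 6.25 without GFP-only replicate 2 for Rbfox3, to 4.46 and 4.84 without GFP-only replicate 3 for Srrm3 and, with WT Ngn3, to 1.85 (without WT replicate 3) for Khdrbs3. Of 11 ubiquitous RNA-binding genes, 0 were higher and 1 and 3 lower (median -0.11 and -0.14), against 5.22% and 8.63% of all genes lower. With the block 2 and 3 were lower and 0 and 1 higher. Mbnl1 fell by 0.47 (SE 0.13) and by 0.72 (SE 0.13), while Ptbp1, which represses neuronal exons in other cells, had log2 fold changes of -0.03 (SE 0.15) and -0.14 (SE 0.15) and did not pass. The other 2 lower with 6S-A Ngn3, named after their values were seen, were Mbnl3 (-2.73) and Ptbp3 (-0.51). The call of Mbnl1 with WT Ngn3 was lost without 1 replicate in 4 of 9 (WT replicate 3, 0.103).

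Among 5 repressors of neuronal genes (median 0.09 and -0.05), Rcor2, a corepressor related to the partner of Rest, rose by 3.91 (SE 0.33) and 4.56 (SE 0.34), from 1.55 ± 0.381 CPM to 23.3 ± 8.11 and 36.9 ± 12.8 CPM. Hes1, with the highest CPM, had log2 fold changes of 0.09 and -0.05 and did not pass. Rest itself, named after its value was seen, was lower with 6S-A Ngn3 (-0.51, SE 0.13, edgeR, adjusted p = 0.0116) and had -0.30 with WT Ngn3 (adjusted p = 0.168, or 0.0478 under the replicate block, edgeR). At 8 days, when 0.741% of all genes were higher with WT and 1.37% with 6S-A Ngn3, the genes of these lists that passed without the block were the axon growth genes Dpysl3 (2.12 and 2.21) and Ncam1 (2.16 and 2.47), with both proteins, and with 6S-A Ngn3 also Nefm (5.78) and Rcor2 (3.42). Leaving out 1 replicate ended the call of Nefm in 5 of 12 (6S-A replicate 1, 0.0864), of Rcor2 in 7 of 12 (6S-A replicate 1, 0.117) and of Ncam1 with WT Ngn3 in 1 of 12 (WT replicate 1, 0.0761), and the log2 fold change of Nefm was at its farthest 7.51 (without 6S-A control replicate 3). Under the replicate block, where the shares of all genes higher were 1.78% and 2.4%, the neuronal RNA-binding Rbfox2 and the ubiquitous Qk passed also with WT Ngn3 (adjusted p = 0.0494 and 0.00325, edgeR). With 6S-A Ngn3 the block added the axon growth genes Dpysl4, Fez1 and Gprin1, giving 5 of 15, the microtubule genes Stmn3 and Ttll7, the kinesin Kif5c and the RNA-binding Srrm3 (adjusted p = 0.019 to 0.0479, edgeR), named after their values were seen.

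Markers of other cells were measured beside the 10 genes. Of 10 endocrine markers, 9 were higher with WT and 10 with 6S-A Ngn3 at 2 days, against 6.56% and 9.43% of all genes. Under the replicate block 8 and 9 were, against 9.47% and 12.7% of all genes. The summed level of these 10 was 0.787 to 2.12 CPM in GFP only, 179 to 902 CPM in WT and 435 to 986 CPM in 6S-A Ngn3. That of 10 peripheral neuron markers was 1.61 to 2.66 CPM, 11.5 to 40.2 CPM and 26.3 to 50.1 CPM, of which 3 of 5 tested were higher with each protein and 1, Prph, was lower with 6S-A Ngn3, or 3 and 4 higher and 0 lower under the block. Most of it came from Snap25, which endocrine cells also express (mean 18.6 and 24.9 CPM in WT and 6S-A Ngn3), and Th (mean 2.18 and 6.78 CPM). The defining factors Phox2a and Hand2 had at most 2 reads in each group of 2 days. Of 10 Schwann and glial markers, summed at 113 to 127 CPM in GFP only, 83.4 to 98.9 CPM in WT and 77.3 to 98.3 CPM in 6S-A Ngn3, Erbb3 was lower with each protein (-1.11 and -1.52) and the others tested did not pass, S100b being lower with 6S-A Ngn3 under the block (adjusted p = 0.0155, edgeR), and Sox10 had at most 2 reads in each of these groups. The summed level of 5 endothelial markers was 0.879 to 1.5 CPM in GFP only, 1.63 to 5.87 CPM in WT and 2.68 to 10.3 CPM in 6S-A Ngn3, without overlap with GFP only, and of 4 tested, Pecam1 (3 reads in GFP only, 21 in WT and 49 in 6S-A Ngn3) was higher with 6S-A Ngn3, and under the replicate block Kdr also (adjusted p = 0.0408, edgeR). Pecam1 had a log2 fold change of 4.08 with 6S-A Ngn3 and at its farthest 2.76 (without 6S-A replicate 3), and its call was lost without 1 replicate in 3 of 9 (6S-A replicate 3, 0.162). The summed mesenchyme, immune and acinar markers stayed at or below 7.68 CPM in the 2-day replicates, and of these the acinar Cela1 was lower with WT Ngn3 (-2.04), a call lost without 1 replicate in 2 of 9 (GFP-only replicate 2, 0.0777). These genes were named after their values were seen.

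At 8 days the summed level of the 10 endocrine markers was 0.737 to 7.71 CPM in the no-color groups, against the 22.1 to 1891 CPM in WT and 162 to 2332 CPM in 6S-A Ngn3 given above. Of the 10, 5 were higher with WT and 7 with 6S-A Ngn3, against 0.741% and 1.37% of all genes. With the block 9 and 10 were, against 1.78% and 2.4% of all genes. Among them Insm1, a factor of endocrine and neuronal precursors, had log2 fold changes of 6.61 (SE 0.63) and 7.39 (SE 0.64). Leaving out 1 replicate ended the calls of Pax6 and Pcsk1n with WT Ngn3 and of Isl1, Pcsk1n and Syp with 6S-A Ngn3 in at least 1 case, Syp with 6S-A Ngn3 falling to 2.13 (without 6S-A replicate 1). The 10 peripheral neuron markers summed to 0 to 3.46 CPM in the no-color groups, 6.32 to 40.2 CPM in WT and 13.3 to 63 CPM in 6S-A Ngn3. Of 3 tested, 0 and 1 were higher, the latter being Snap25 (4.27, SE 0.84, edgeR, adjusted p = 0.012), and with the block Snap25 and Th with each protein. Snap25 was at its farthest 5.71 (without 6S-A control replicate 2), and its call was lost without 1 replicate in 1 of 12 (6S-A replicate 1, 0.0806). Phox2a, Hand2 and Sox10 had 0 reads in both Ngn3 groups of 8 days. The 10 ductal markers summed to 16754 to 40859 CPM in the no-color groups, 14041 to 16524 CPM in WT and 10142 to 25379.6 CPM in 6S-A Ngn3. Krt19 was lower with both proteins (-1.67 and -1.97) and Muc1 with 6S-A Ngn3 (-1.53), or 2 and 4 of 10 with the block. Over all 19696 genes, 34 and 67 were lower with WT and 6S-A Ngn3, or 122 and 232 with the block. The calls were lost without 1 replicate in 2 of 12 (WT replicate 1, 0.115) for Krt19 with WT Ngn3 and in 3 of 12 (6S-A replicate 3, 0.0966) for Muc1. No Schwann and glial, mesenchyme, endothelial, immune or acinar marker tested passed at 8 days in either fit (edgeR). The Schwann and glial markers summed to 69.4 to 171 CPM in the no-color groups, 78.7 to 108 CPM in WT and 32.9 to 125 CPM in 6S-A Ngn3, and the endothelial ones to 0 to 0.394 CPM, 0 to 1.28 CPM and 0.423 to 3.84 CPM. The other 3 lists stayed at or below 20.7 CPM. These genes too were named after their values were seen. The part of other cells in the levels of the 10 genes was not tested.

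Among the genes most like the 10 across the 21 replicates, by Pearson's r of log2 CPM with the mean standardised level of the 10 genes, were Cacna1b, a neuronal calcium channel subunit (0.96), Fryl (0.96), 9330182L06Rik (0.95) and Mtmr3 (0.94). Each of the 10 genes was set against the mean of the other 9, to which Celf3 (0.92), Map1b (0.85) and Dcx (0.81) were closest and Gap43 (0.26) farthest. The replicates share groups and days, so these values are a description. Cacna1b had 0.406 ± 0.279 CPM in GFP only, 5.73 ± 3.3 CPM in WT and 7.97 ± 3.04 CPM in 6S-A Ngn3 at 2 days (SD, n = 3).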

How the data were processed

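Pools of 50 sorted cells were amplified with the Smart-seq2 protocol and sequenced as single 50-base reads. Per the submitters' processing notes, reads were aligned to mm10 with GSNAP and counted with HTSeq 0.5.3p3, and the authors deposited whole-number read counts per Ensembl gene for 77 libraries. Whether counting used strand is not given in the sources used here. Over all libraries 22.5% of reads were not aligned, 14.4% fell on no gene and 8.06% were ambiguous, and these and 92 spike-ins were left out of library sizes. Of the libraries, 76 passed limits of 1000000 reads on genes, 10000 detected genes and 30% spike-in reads, at 1501002 to 9202142 reads.

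Counts of the pools of a replicate were summed, 6 pairs with nearly the same counts included, and genes detected in at least 5 libraries were tested with edgeR 4.0.16 (R 4.3.3, TMM, robust quasi-likelihood fit, Benjamini-Hochberg adjustment over all genes tested), in a fit per day and a fit of both days, after the code had been tested on simulated data. The control at 8 days was the mean of both no-color groups. The SE of a log2 fold change was its absolute value divided by the square root of F in the quasi-likelihood test. The intervals of log2 fold changes use this SE. Floors are 3 reads over a group. Symbols were found for 45143 of 46078 gene IDs. DESeq2 1.42.0, scran 1.30.0 size factors, other filters, single pools, a replicate block, each protein's own control and leaving out replicates served as alternatives. Replicates of the same number deviated together in every pair (r = 0.146 to 0.564 over 9 pairs at 2 days and 0.112 to 0.668 over 18 pairs at 8 days, over 10221 and 9767 genes with a mean log2 CPM above 3), which meets the rule set for pairing. The tests reported are those of the fit without the block, as fixed, and the block is given beside a result where it changes a call. Over all 24945 genes of the fit of both days the lowest values were 0.0481 and 0.0515. From each list, the genes named were those passing with both proteins with the largest mean change (at most 4) and the gene with the highest CPM. The 10 genes and all lists were chosen with earlier results of these data known. Values of some genes of these lists and rules are not reported here.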

Additional observations from a re-analysis of the deposited data

How the results depend on the processing

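No call of the 10 genes reversed in direction under the alternatives run. At 2 days the counts of 5 (WT) and 7 (6S-A) genes higher fell to 2 and 1 with the first pool of each replicate alone. In that fit 429 and 569 of 16475 genes were higher, against 1563 and 2249 of 23844 in the fit reported. When single replicates were left out the counts were 3 to 5 and 6 to 7. The lowest for WT was without GFP-only replicate 2, where 1126 of 23350 genes were higher. The other alternatives kept the counts within 1.5 times. At 8 days the counts of 1 (WT) and 2 (6S-A) were 3 and 5 with DESeq2 (1.75% and 2.38% of all genes higher, against 0.741% and 1.37% in the edgeR fit reported), 3 and 5 without a filter on low counts (1.76% and 2.45%) and 2 and 4 with the replicate block (1.78% and 2.4%). Against each protein's own control they were 0 and 0, with 37 and 82 of all 19696 genes higher. Also at 8 days, filterByExpr gave 0 for WT (126 of 15229 genes higher) and the first pool alone 1 for 6S-A (191 of 17144). Leaving out passage 5 gave 3 for 6S-A (190 of 19071), and leaving out single replicates gave 0 to 2 and 1 to 4. Between 8 and 2 days the count of 0 became 1 (WT) with DESeq2, the replicate block or without passage 5. With WT Ngn3, 254 of 24945 genes were called by DESeq2, 337 under the block and 29 in the fit reported. The count became 2 (WT) and 1 (6S-A) without a filter (1.13% and 1.93% of all genes). It was 0 to 1 for WT when single replicates were left out. For the change of effect it became 1 (WT) with DESeq2 and 1 with each protein without a filter, where Tubb3 passed (adjusted p = 9.03e-06 and 1.69e-06, edgeR). The replicate block changed no other call of the 10 genes than those given with their results. Summing only 1 pool of each of the 6 close pairs, an alternative chosen after seeing the data, left the counts at 5 and 7 at 2 days, 0 between the proteins and 0 in the comparisons of both days. With the first pool alone, the log2 fold changes of Tubb3 at 2 days were 8.55 and 8.82, fewer reads and 16475 genes entered the fit at 2 days, Elavl3 and Elavl4 were not tested, and in edgeR Map2 (adjusted p = 0.42 and 0.196 with WT and 6S-A Ngn3), Celf3 (0.0579 and 0.0604) and, with 6S-A Ngn3, Dcx (0.158) and Map1b (0.429) were lost. Beyond these constructions the cause of the differences was not tested. At 8 days, replicates of 1 to 3 pools limit the genes with few reads.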
